A study of Homo sapiens with 3 samples.

Results

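The genes described here encode death receptors, their adaptor, the caspase they activate, its inhibitor and members of the inhibitor of apoptosis (IAP) family. The 9 genes were chosen by symbol among the 58735 genes of the expression table, and each was found in 1 row. They are the receptor genes TNFRSF10A, TNFRSF10B, TNFRSF10D and FAS, the adaptor gene FADD, CASP8, CFLAR, and the IAP genes XIAP and BIRC2. H660 is an established human cell line of neuroendocrine prostate cancer, and JG231 inhibits the chaperone HSP70 allosterically. RNA-seq was performed on H660 cells treated for 24 h with the vehicle DMSO, with 2.5 µM JG231 or with 5 µM JG231, to find transcripts that differed when HSP70 was inhibited. There was 1 library per condition, so no SD or p-value could be computed, and the single DMSO library served as the control of both doses.

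Death receptors sit at the cell surface and are engaged by ligands such as TRAIL and FAS ligand. The engaged receptor recruits FADD, which gathers pro-caspase-8 into a complex where the enzyme activates itself, and c-FLIP, the product of CFLAR, competes for places in that complex. Active caspase-8 cleaves executioner caspases directly and through BID, while XIAP binds and blocks caspases further down and cIAP1, the product of BIRC2, ubiquitinates RIPK1 at receptor complexes.

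The neuroendocrine identity of the line was checked first. The 7 neuroendocrine markers described here each exceeded 1 FPKM, a fragment count divided by exon length and by the library total, and their summed FPKM was 156 in DMSO, 119.5 at 2.5 µM and 107 at 5 µM. CHGA, which encodes chromogranin A of secretory granules and was the most abundant of them in DMSO, had 46.0, 15.0 and 12.7 FPKM. SYP, ENO2, NCAM1 and CHGB were also lower at both doses. SCG2 went the other way, with 15.3, 29.5 and 30.6 FPKM. INSM1 was higher at 2.5 µM only, with 13.4, 16.3 and 10.5 FPKM. The part of these shifts in the changes described here was not tested. The 4 epithelial markers were also above 1 FPKM, EPCAM with 302, 262 and 261 FPKM and KRT8 with 224, 414 and 505 FPKM among them. Of the prostate luminal markers, KLK2 was listed at 0 and KLK3 had at most 0.134 FPKM. Of 5 blood markers 4, PTPRC among them, were listed at 0 in every library. Of the 5 fibroblast markers only COL1A1 exceeded 1 FPKM, with 1.27 FPKM at 5 µM. PECAM1 was listed at 0, while CDH5, another endothelial marker, had 4.92 FPKM in DMSO, 0.476 at 2.5 µM and 0.581 at 5 µM. In bulk RNA, fewer cells expressing a gene and less RNA per cell cannot be told apart.

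The FPKM values stepped in whole fragments, which gave the depth behind each gene. Among genes with 1 annotated transcript and under 50 fragments, 85.6% of 4740 values in DMSO, 82.7% of 3255 at 2.5 µM and 81.0% of 2027 at 5 µM were whole to within 0.001 fragments. The totals were 16.1 M fragments in DMSO, 20.4 M at 2.5 µM and 24.1 M at 5 µM. The number of genes above 0 went the other way, with 21862, 19352 and 17293 genes. Between 2 and 40 fragments, the most frequent number was 5 in DMSO, 4 at 2.5 µM and 15 at 5 µM. A single fragment was more frequent than these at 2.5 µM, with 183 genes against 178, and at 5 µM, with 116 against 85, but not in DMSO, with 257 against 335. The intervals given for the 9 genes nevertheless count 5, 4 and 15 fragments as 1 observation in the respective libraries, which makes them wider than intervals from the fragments themselves. They are exact 95% intervals (Poisson for a level, Clopper-Pearson for a ratio) and cover counting error only. The methods of the study do not say if PCR copies of a molecule were removed, and copies left in can be counted more than once. Taking the most frequent number as 1 observation is therefore an assumption.

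**Figure D1:**
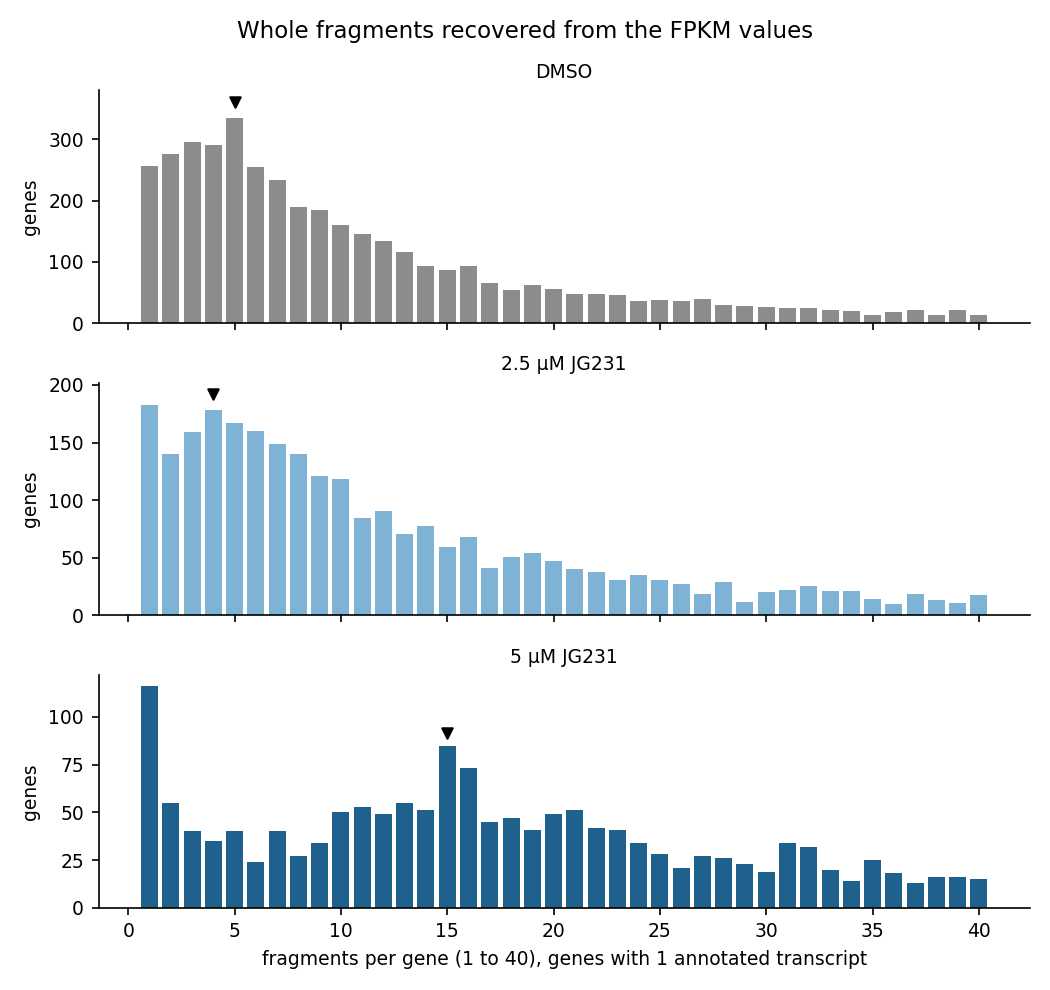
Number of genes (vertical axis) with each whole number of fragments from 1 to 40 (horizontal axis) in each library, among genes with 1 annotated transcript; the black triangle marks the most frequent number from 2 upward. The most frequent number was 5 in DMSO with 335 genes, 4 at 2.5 µM with 178 genes and 15 at 5 µM with 85 genes.

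A change is given as log2 of FPKM plus 0.1 relative to DMSO plus 0.1, a scale that understates the change of low genes. A gene was tested if it exceeded 1 FPKM in either library, a reading of the filter of the study methods that keeps a gene listed at 0 in 1 library only if it exceeded 1 FPKM in the other. It was called higher or lower past 0.25 on that scale. TNFRSF10D did not reach 1 FPKM, and the other 8 genes were tested at both doses. At 5 µM 2 of the 8 were higher, TNFRSF10B and FADD, where 36.5% of all 15765 tested genes were higher. In the same comparison 4 of the 8 were lower, FAS, CASP8, CFLAR and XIAP, beside 45.1% of all tested genes. At 2.5 µM 3 of the 8 were higher, TNFRSF10A, TNFRSF10B and BIRC2, beside 36.4% of 15746 genes, and 4 were lower, FADD, CASP8, CFLAR and XIAP, beside 43.4%. These counts were near the shares among all genes, so how many of the 9 genes moved does not set them apart. Past a change of 1, only TNFRSF10B was higher, at both doses, against 14.7% of genes at 5 µM and 12.9% at 2.5 µM, and only XIAP was lower, at 5 µM, against 24.3% of genes; none was lower at 2.5 µM, against 21.7%. The median change of the 8 genes was -0.08 at 2.5 µM and -0.31 at 5 µM, and that of all tested genes was -0.08 and -0.11.

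**Figure D2:**
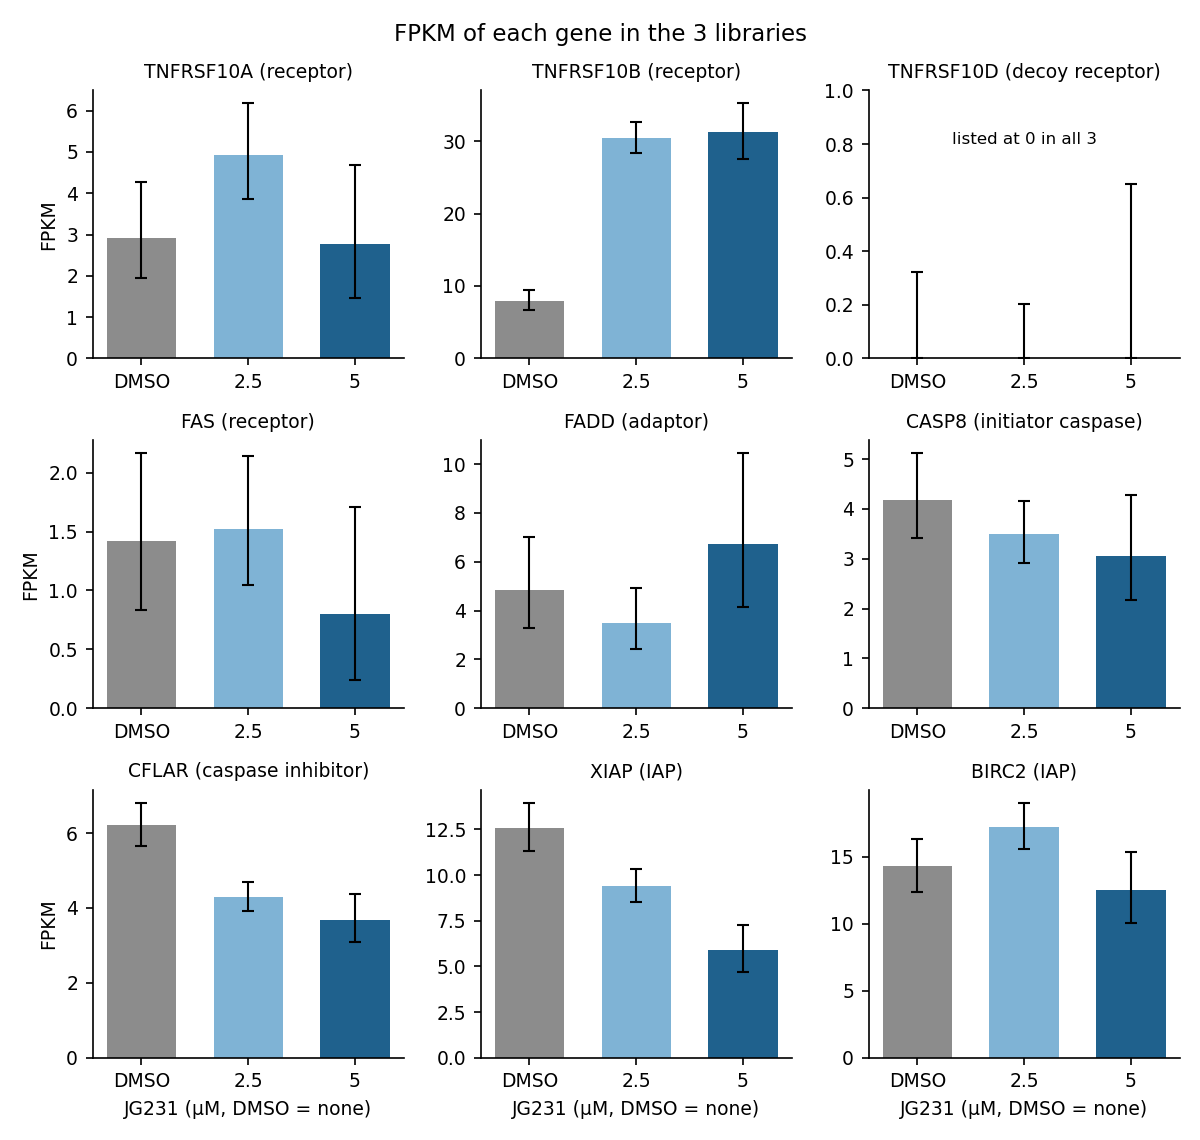
FPKM (vertical axis, linear and from 0) of each of the 9 genes in the DMSO, 2.5 µM and 5 µM JG231 libraries, 1 library per bar; error bars are the exact 95% Poisson intervals from counting, with the most frequent number of fragments taken as 1 observation. TNFRSF10B had 7.97, 30.5 and 31.2 FPKM, XIAP had 12.6, 9.41 and 5.89 FPKM, and TNFRSF10D was listed at 0.

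TNFRSF10B (ENSG00000120889) encodes DR5, a death receptor for TRAIL whose cytoplasmic death domain recruits FADD. It had 7.97 FPKM in DMSO, 30.5 at 2.5 µM and 31.2 at 5 µM, on 661, 3201 and 3876 fragments. Both treated libraries were far above DMSO and close to each other. The log2 change was 1.92 at 2.5 µM (interval 1.67 to 2.21) and 1.96 at 5 µM (interval 1.66 to 2.28), or 3.79-fold and 3.88-fold. Of all tested genes, 95.4% had a smaller or more negative change at 2.5 µM and 95.3% at 5 µM. Between the 2 JG231 libraries TNFRSF10B differed by 0.04, less than the robust SD of 0.25 among the 500 genes nearest to it in mean FPKM. Rescaling, other pseudocounts and removal of the trend with transcript length kept the change between 1.63 and 1.97 at 2.5 µM and between 1.58 and 2.05 at 5 µM. RHOBTB2, which overlaps TNFRSF10B on the opposite strand, had 1.90, 0.724 and 1.65 FPKM and did not share its pattern.

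TNFRSF10A (ENSG00000104689) encodes DR4, the other TRAIL receptor with a complete death domain. Its level was 2.93 FPKM in DMSO, 4.92 at 2.5 µM and 2.77 at 5 µM. The 2.5 µM library was thus the high one, and 5 µM was at the level of DMSO as deposited. The log2 change was 0.73 at 2.5 µM (interval 0.09 to 1.42) and -0.08 at 5 µM (interval -1.18 to 0.89). At 5 µM the gene stood on 197 fragments, only 13.1 times the most frequent number, and its interval there was wide. TNFRSF10A-DT, a noncoding RNA gene that overlaps it on the opposite strand, was also highest at 2.5 µM, with 0.814, 2.61 and 1.12 FPKM. The sources do not say if strand was used in counting, without which reads of the pair cannot be told apart.

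TNFRSF10D (ENSG00000173530) encodes a decoy receptor that binds TRAIL but has a truncated death domain. It was listed at 0 in all 3 libraries. With its annotated exon length, 3 fragments would have given 0.0528 FPKM in DMSO, 0.0417 at 2.5 µM and 0.0353 at 5 µM. With 3 times the most frequent number of fragments these limits were 0.264, 0.167 and 0.529 FPKM. TNFRSF10C, the gene of the decoy receptor that lacks an intracellular domain, had 0.366 FPKM on 7 fragments in DMSO and was listed at 0 at both doses. The ratio of TNFRSF10B to TNFRSF10D could not be formed.

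The TRAIL receptor genes lie next to each other on chromosome 8, and their makeup changed between libraries. The summed FPKM of the 4 genes was 11.3 in DMSO, 35.4 at 2.5 µM and 34.0 at 5 µM. TNFRSF10B made up 70.7% of that sum in DMSO, 86.1% at 2.5 µM and 91.8% at 5 µM. The ratio of TNFRSF10B to TNFRSF10A within a library was 2.72 in DMSO, 6.19 at 2.5 µM and 11.3 at 5 µM. Such a ratio does not move with the scaling of a library.

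FAS (ENSG00000026103, chr10:88953813-89029605, GRCh38) encodes the receptor of FAS ligand. It was the lowest of the genes above 0, with 1.42 FPKM in DMSO, 1.52 at 2.5 µM and 0.801 at 5 µM. The DMSO and 2.5 µM libraries were alike and 5 µM was lower, but the intervals of the 3 levels overlapped. Changes were 0.10 at 2.5 µM (interval -0.72 to 1.03) and -0.75 at 5 µM (interval -2.70 to 0.55). The value at 5 µM rested on 82 fragments, 5.47 times the most frequent number, and with these fragments a difference from DMSO was not separated from 0. The fragments of FAS could be a whole multiple of those given, since the length behind them is uncertain, and the interval from the fragments themselves was -1.27 to -0.38 at 5 µM. STAMBPL1, which overlaps FAS on the same strand, had 0.560, 1.14 and 0.999 FPKM.

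FADD (ENSG00000168040, chr11:70203296-70207390) encodes the adaptor that joins receptor death domains to caspase-8. It had 4.83 FPKM in DMSO, 3.49 at 2.5 µM and 6.73 at 5 µM. Its values fell on opposite sides of DMSO at the 2 doses. The log2 change was -0.46 at 2.5 µM (interval -1.24 to 0.30) and 0.47 at 5 µM (interval -0.43 to 1.34), and both intervals included 0. The difference between the 2 JG231 libraries was 0.93 (interval 0.07 to 1.79), beyond the robust SD of 0.47 among genes of similar FPKM. FADD has a short transcript, and short transcripts were on the whole higher after JG231. With the trend over transcript length removed, its change was -0.72 at 2.5 µM and 0.11 at 5 µM. Rescaling without mitochondrial and small RNA genes gave FADD -0.74 and 0.10, also inside the threshold at 5 µM.

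CASP8 (ENSG00000064012, chr2:201233443-201361836) encodes the initiator caspase of the complex. It had 4.19 FPKM in DMSO, 3.50 at 2.5 µM and 3.06 at 5 µM. The order followed the dose, while the intervals of neighbouring levels overlapped. Relative to DMSO the log2 change was -0.25 at 2.5 µM (interval -0.66 to 0.13) and -0.44 at 5 µM (interval -1.03 to 0.12), past the threshold at both doses but with 0 inside both intervals. At 2.5 µM it came to -0.21, inside the threshold, with a pseudocount of 1 and with a common FPKM sum. Rescaling without mitochondrial and small RNA genes gave larger changes, -0.54 at 2.5 µM and -0.81 at 5 µM. Removal of the length trend gave -0.38 and -0.60.

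CFLAR (ENSG00000003402, chr2:201116154-201176687) encodes c-FLIP, a relative of caspase-8 without its catalytic activity. It fell from 6.20 FPKM in DMSO to 4.29 at 2.5 µM and 3.68 at 5 µM. Both treated libraries were below the interval of the DMSO level. The log2 change was -0.52 at 2.5 µM (interval -0.72 to -0.35) and -0.74 at 5 µM (interval -1.04 to -0.47). Its canonical transcript, 14612 bases, was the longest of the 9, and genes with long transcripts were lower after JG231. The trend at that length was -0.40 at 2.5 µM and -0.68 at 5 µM. With the trend removed CFLAR was left with changes of -0.12 and -0.05, inside the threshold at both doses. Rescaling without mitochondrial and small RNA genes gave larger changes instead, -0.81 at 2.5 µM and -1.11 at 5 µM.

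CFLAR and CASP8 lie in a row on chromosome 2 with CASP10 between them, 6184 bases after CFLAR and 4014 bases before CASP8. CASP10, which encodes the initiator caspase closest to caspase-8, had 2.40 FPKM in DMSO, 0.439 at 2.5 µM and 0.941 at 5 µM. The 3 neighbours were thus all lower in both treated libraries, CASP10 by the most, with log2 changes of -2.21 and -1.26. For CASP8 the counting intervals of the change included 0 at both doses. The ratio of CFLAR to CASP8 within a library was 1.48 in DMSO, 1.23 at 2.5 µM and 1.20 at 5 µM. Which of the pair was higher depended on the length used. Per base of the canonical transcript the ratio was 0.838, 0.694 and 0.680, because the annotated exons of CASP8 add up to 7237 bases and its canonical transcript has 2659. The log2 change of the ratio, -0.27 at 2.5 µM and -0.30 at 5 µM, was the same on either length, but the difference of the 2 genes' changes turned to 0.26 and 0.54 with the length trend removed, so its direction depended on that trend.

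XIAP (ENSG00000101966, chrX:123859712-123913972) encodes the IAP that inhibits caspases by direct binding. It fell from 12.6 FPKM in DMSO to 9.41 at 2.5 µM and 5.89 at 5 µM, on 1828, 1731 and 1280 fragments. The 3 levels were in the order of the dose and their intervals did not overlap. This gave log2 changes of -0.42 at 2.5 µM (interval -0.62 to -0.22) and -1.08 at 5 µM (interval -1.46 to -0.76). The step from 2.5 to 5 µM, -0.67, was also beyond the robust SD of 0.31 among genes of similar FPKM. Its long transcript lay in the falling part of the length trend, and with that trend removed the change was -0.16 at 2.5 µM and -0.61 at 5 µM. At 5 µM 22.8% of tested genes had a lower change than XIAP.

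BIRC2 (ENSG00000110330, chr11:102347211-102378670) encodes cIAP1, a ubiquitin ligase of TNF receptor complexes. It was the most abundant of the 9 per exon length in DMSO, with 14.3 FPKM, and had 17.2 FPKM at 2.5 µM and 12.5 at 5 µM. The 2.5 µM library was the high one, as for TNFRSF10A. The log2 change was 0.27 at 2.5 µM (interval 0.03 to 0.52), which became -0.02 after rescaling to a common sum without mitochondrial and small RNA genes, and -0.19 at 5 µM (interval -0.56 to 0.17). At 5 µM BIRC2 was within 0.25 of DMSO as deposited, but at -0.32 with a common FPKM sum and at -0.56 without mitochondrial and small RNA genes. BIRC3, which encodes cIAP2, lies 7807 bases before BIRC2, and the ratio of BIRC3 to BIRC2 was 0.236 in DMSO, 0.209 at 2.5 µM and 0.252 at 5 µM. The ratio of XIAP to BIRC2 went from 0.882 in DMSO to 0.546 at 2.5 µM and 0.470 at 5 µM, a log2 change of -0.69 and -0.91, and the difference of their changes was -0.43 and -0.48 with the length trend removed.

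**Figure D3:**
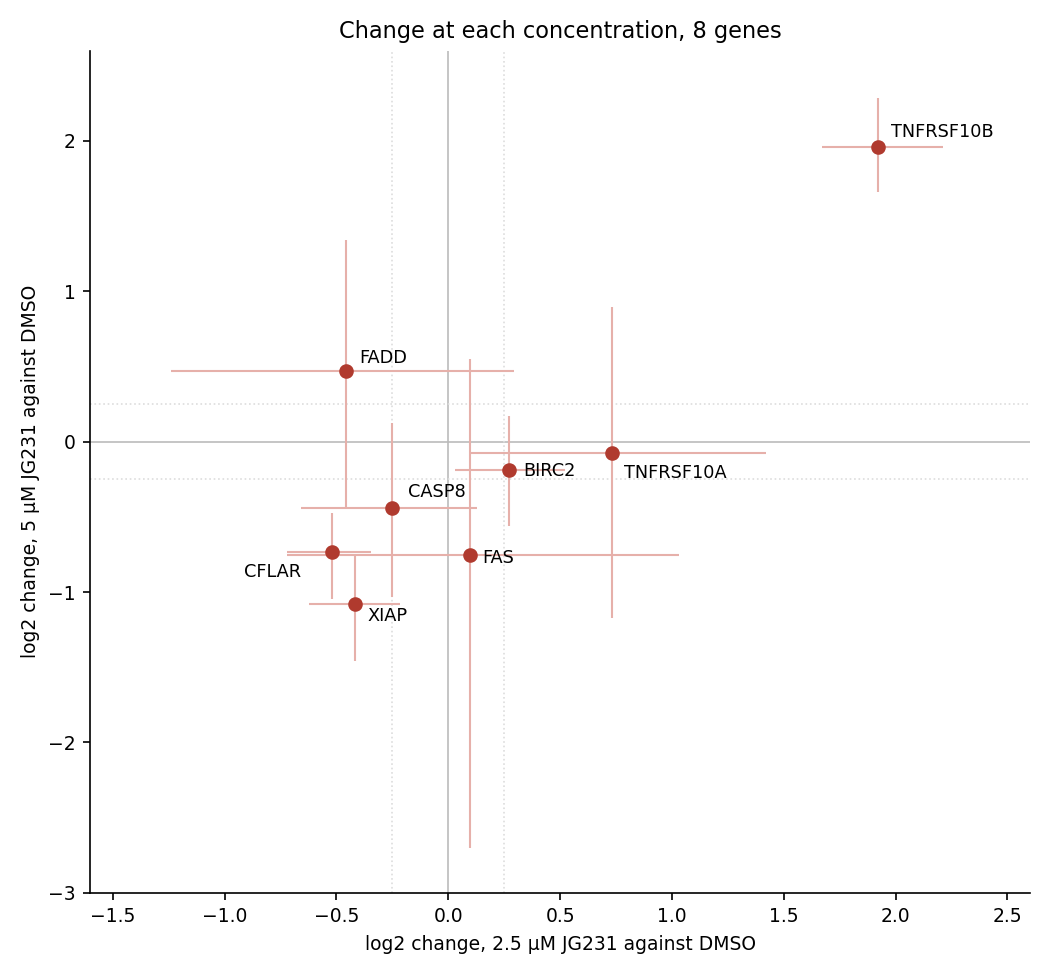
Log2 change of FPKM plus 0.1 at 2.5 µM JG231 (horizontal axis) and 5 µM JG231 (vertical axis) against the shared DMSO library, for the 8 genes above 0; lines through the points are exact 95% counting intervals, and dotted lines mark 0.25. TNFRSF10B stood at 1.92 and 1.96, and XIAP and CFLAR lay below 0 with their intervals at both doses. CFLAR came to -0.12 and -0.05 with the length trend removed, and to -0.81 and -1.11 after rescaling without mitochondrial and small RNA genes.

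Counting intervals separated 5 of the 8 genes from 0 at 2.5 µM, TNFRSF10A, TNFRSF10B and BIRC2 above it and CFLAR and XIAP below it. At 5 µM they separated 3, TNFRSF10B above 0 and CFLAR and XIAP below it. Intervals from the fragments themselves separated 7 of the 8 genes from 0 at each dose, all but FAS at 2.5 µM and all but TNFRSF10A at 5 µM, so these counts depend on how fragments are taken. In order of level per exon length, DMSO cells had BIRC2 first, then XIAP, TNFRSF10B, CFLAR, FADD, CASP8, TNFRSF10A and FAS. At 5 µM TNFRSF10B came first, then BIRC2, FADD, XIAP, CFLAR, CASP8, TNFRSF10A and FAS. In DMSO the counting intervals of neighbours in this order overlapped, except those of XIAP and TNFRSF10B. At 5 µM neighbours overlapped except TNFRSF10B and BIRC2, and XIAP and CFLAR. The order depended on the length used. Per base of the canonical transcript CASP8 was the third in both libraries, above CFLAR and, in DMSO, above TNFRSF10B.

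Promoter sequences were searched for letters bound by factors of the stress and NF-kB responses, whose genes are among the regulators described further on. RefSeq windows on GRCh38.p14, from 250 bases before to 50 bases after a gene start, were searched on both strands for TGATGNAA (the C/EBP-ATF element), TGACTCA (AP-1), TGACGTCA (CRE) and the NF-kB motif. The 6 genes FAS, FADD, CASP8, CFLAR, XIAP and BIRC2 matched 16 windows, and the promoters of the TRAIL receptor genes were not searched. The C/EBP-ATF letters were in none of them and in 3.62% of all 35116 windows. AP-1 letters were in 2 windows of CASP8 and in 4.95% of all. CRE letters were in the 2 overlapping windows of BIRC2 and in 1.85% of all, and the NF-kB motif was in 1 window each of CFLAR and FAS and in 5.91% of all. The matches are shown on the plus strand with the matched letters in capitals. A match is a description of the letters and not of binding.
BIRC2, CRE, chr11:102347181-102347240: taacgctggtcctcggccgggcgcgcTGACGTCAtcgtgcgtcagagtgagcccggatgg
CASP8, AP-1 on the minus strand, chr2:201258005-201258064: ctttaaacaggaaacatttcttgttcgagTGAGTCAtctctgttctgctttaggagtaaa
CASP8, AP-1, chr2:201260449-201260508: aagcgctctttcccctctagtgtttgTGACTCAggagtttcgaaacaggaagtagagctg
CFLAR, NF-kB, chr2:201118593-201118652: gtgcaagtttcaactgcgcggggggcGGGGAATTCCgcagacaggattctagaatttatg
FAS, NF-kB, chr10:88991248-88991307: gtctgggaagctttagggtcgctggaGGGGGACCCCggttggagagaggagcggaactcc

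The genes that act with these 9 were described from 8 lists with 63 genes. Of the 47 tested at 5 µM, 22 were higher and 18 lower past 0.25, beside 36.5% and 45.1% of all tested genes. Of the 49 tested at 2.5 µM, 22 were higher and 16 lower, beside 36.4% and 43.4%. These shares are the background of every list that follows. Their median change was 0.18 at 5 µM and 0.11 at 2.5 µM, against -0.11 and -0.08 among all tested genes. The lists differed from each other more than these totals show.

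Among 8 known regulators of death receptor genes, 7 were higher at both doses, beside 36.4% of all tested genes at 2.5 µM and 36.5% at 5 µM. DDIT3 encodes CHOP, a transcription factor of the unfolded protein response that can activate TNFRSF10B. It had 24.8 FPKM in DMSO, 338 at 2.5 µM and 397 at 5 µM, which was 13.6-fold and 16.0-fold higher on the scale with the pseudocount. MARS1, which overlaps DDIT3 on the opposite strand, was higher as well, with 32.3, 86.1 and 91.1 FPKM. MBD6, which also overlaps it on that strand, had 16.3, 37.0 and 32.9 FPKM. ATF3 and TRIB3, genes of the unfolded protein response too, had log2 changes of 3.55 and 4.61 at 2.5 µM and 3.89 and 4.84 at 5 µM. The NF-kB genes of the list were higher too. NFKBIA, which encodes the inhibitor of NF-kB and is itself induced by it, had 112, 460 and 514 FPKM, and RELA, a subunit gene, had 14.1, 20.6 and 22.3 FPKM. The part of these factors in the level of TNFRSF10B was not tested.

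Among the ligands, 3 of 6 were tested and moved in different directions. TNFSF10, which encodes TRAIL, the ligand of DR4 and DR5, fell from 9.50 FPKM in DMSO to 6.44 at 2.5 µM and 6.07 at 5 µM, a log2 change of -0.55 and -0.64. TRAIL mRNA was thus lower in the libraries where TNFRSF10B was higher. TNF rose from 2.08 to 6.27 and 10.2 FPKM, by 1.55 and 2.24. TNFSF15, whose product binds the receptor DR3, fell from 4.13 to 0.597 and 0.906 FPKM, changes of -2.60 and -2.07. FASLG and LTA were listed at 0 in every library, so FAS ligand mRNA was not detected.

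Of 8 other death and decoy receptors 5 were tested at 2.5 µM and 4 at 5 µM. Of these, 4 were higher and 1 lower at 2.5 µM, beside 36.4% and 43.4% of all genes, and 2 were higher and 1 lower at 5 µM, beside 36.5% and 45.1%. TNFRSF25, which encodes DR3, fell from 18.9 FPKM in DMSO to 5.76 at 2.5 µM and 2.32 at 5 µM, log2 changes of -1.70 and -2.98. It fell together with the gene of its ligand. ESPN, a gene overlapping TNFRSF25 on the opposite strand, was lower as well, with 18.2, 8.71 and 6.66 FPKM. TNFRSF21, which encodes DR6, rose from 16.1 to 27.9 and 24.9 FPKM, by 0.79 and 0.63. Its lowest change among the alternative settings was 0.50 at 2.5 µM and 0.248 at 5 µM, the latter inside the threshold. TNFRSF1A, the main TNF receptor gene, had 9.08, 11.4 and 8.82 FPKM and a change of -0.04 at 5 µM, while TNF itself was higher.

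Of 15 adaptors and kinases 13 were tested at 2.5 µM and 12 at 5 µM, and 7 were higher and 5 lower at each dose, beside 36.4% and 43.4% of all genes at 2.5 µM and 36.5% and 45.1% at 5 µM. DEDD2, which encodes a death effector domain protein, rose from 12.5 FPKM in DMSO to 18.4 at 2.5 µM and 32.5 at 5 µM. RIPK1, the kinase recruited to TNF and TRAIL receptors, fell from 16.2 to 7.81 and 6.79 FPKM, log2 changes of -1.05 and -1.24. TRADD, the adaptor of TNFRSF1A and TNFRSF25, fell from 6.88 to 4.55 and 2.87 FPKM, changes of -0.59 and -1.23. RIPK1 and TRADD were thus lower at both doses, while FADD was below DMSO at 2.5 µM only. RIPK3, a kinase of necroptosis, was listed at 0 in every library.

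Of 10 other caspases 8 were tested. At 2.5 µM 2 were higher and 3 lower, beside 36.4% and 43.4% of all genes, and at 5 µM 2 were higher and 2 lower, beside 36.5% and 45.1%, so the counts were no larger than those shares. CASP9, the initiator caspase of the apoptosome, looked at after its values were seen, had 2.5 FPKM in DMSO, 3.76 at 2.5 µM and 3.98 at 5 µM, log2 changes of 0.57 and 0.65. CASP2, an initiator caspase of another complex, fell from 6.48 to 3.19 and 2.88 FPKM, a change of -1.14 at 5 µM. CASP8, CASP10 and CASP2 were thus lower at both doses and CASP9 was higher, though for CASP8 both counting intervals included 0.

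Of 5 other IAP genes 3 were tested. BIRC5, which encodes survivin, had 17.6 FPKM in DMSO, 19.0 at 2.5 µM and 26.1 at 5 µM, a log2 change of 0.11 and 0.56, which became -0.18 and 0.18 after rescaling without mitochondrial and small RNA genes. BIRC6, the gene of a very large IAP, had 3.13, 2.49 and 1.89 FPKM and changes of -0.32 and -0.70, which became 0.10 and 0.01 with the length trend removed. BIRC3 had changes of 0.10 and -0.09, which became 0.30 and 0.29 with the length trend removed. Among the IAP antagonists, whose products counter XIAP, HTRA2 had 8.72, 10.2 and 11.6 FPKM, and its change of 0.41 at 5 µM became 0.07 with the length trend removed. AUP1, which overlaps HTRA2 on the opposite strand, had 41.7, 108 and 110.1 FPKM. DIABLO and XAF1 were below 1 FPKM in every library. The annotated exons of DIABLO add up to 6960 bases and its canonical transcript has 1471, so its level would be higher per base of that transcript.

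The last list held 7 genes of caspase substrates and DFFB, the gene of the DNase that caspases set free. Of these 8 genes 7 were lower and 1 higher at 5 µM, beside 45.1% of all tested genes lower, and 4 were lower and 1 higher at 2.5 µM, beside 43.4% lower. DFFA, the inhibitor of the caspase-activated DNase, fell from 13.6 FPKM in DMSO to 6.55 at 2.5 µM and 4.14 at 5 µM, log2 changes of -1.04 and -1.69. GSDME, a pore-forming caspase substrate, fell from 2.40 to 1.41 and 0.837 FPKM, changes of -0.73 and -1.41. PARP1, a DNA repair enzyme cleaved in apoptosis, fell from 61.9 to 26.6 and 30.2 FPKM, changes of -1.22 and -1.03. LMNA was the gene that was higher, and its change of 0.53 at 5 µM became 0.15 after rescaling without mitochondrial and small RNA genes. ROCK1, one of the genes that were lower, went from -0.62 at 5 µM to -0.10 with the length trend removed.

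**Figure D4:**
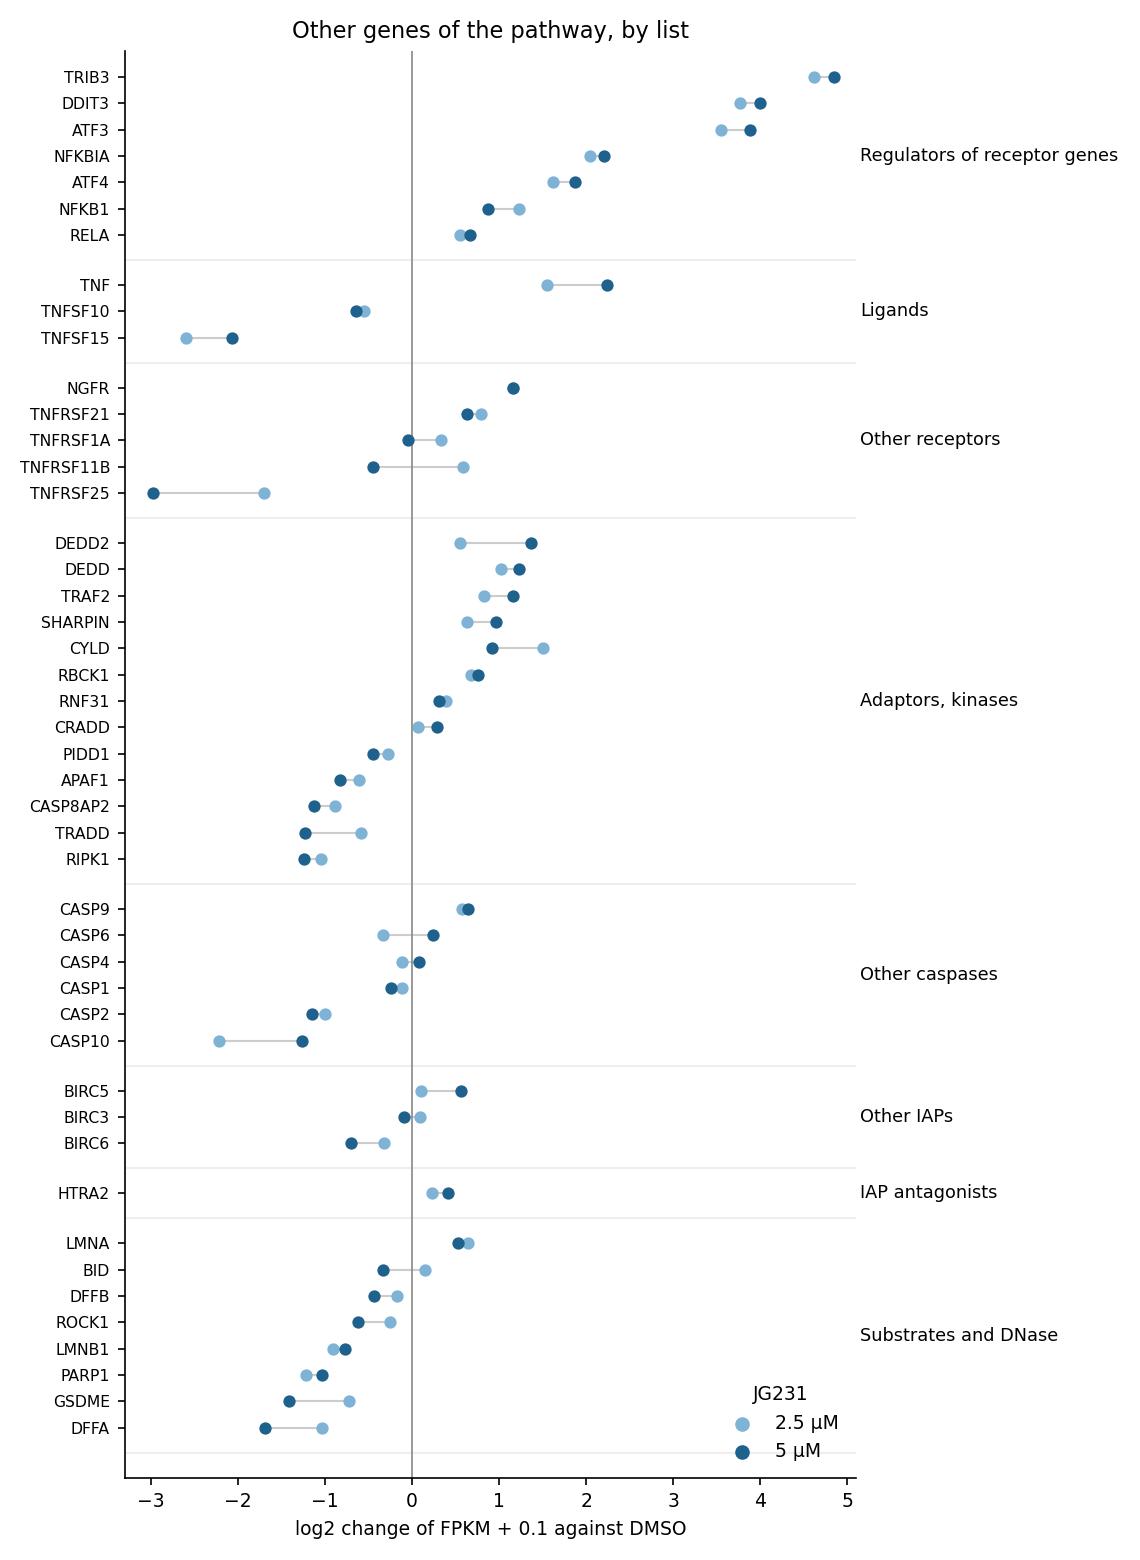
Log2 change of FPKM plus 0.1 against DMSO (horizontal axis) at 2.5 µM (light points) and 5 µM JG231 (dark points) for genes of the 8 lists that exceeded 1 FPKM in a compared library, grouped by list. TRIB3, DDIT3 and ATF3 stood furthest above 0 and TNFRSF25 furthest below 0 at 5 µM, at -2.98.

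The genes most like TNFRSF10B were found by distance in the plane of both log2 changes, among 7051 other protein-coding genes with a mean of at least 5 FPKM. They were TSSC4, JUNB, PRKD1, C15orf61 and BAK1, at distances from 0.02 to 0.08, and 45 genes lay within 0.25. JUNB encodes a subunit of AP-1 and BAK1 encodes a pore-forming effector of mitochondrial apoptosis. The 5 genes most like XIAP were CDON, NFE2L3, PIK3C2A, B3GALT4 and TEAD1, at distances from 0.05 to 0.07, and 84 genes lay within 0.25. The likeness rests on 2 changes that share their DMSO library.

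The scale between libraries bears on each change above. Mitochondrial and small RNA genes made up 40.5% of summed FPKM in DMSO, 24.6% at 2.5 µM and 29.2% at 5 µM. Rescaling without them moved the median gene with a mean of at least 1 FPKM by -0.29 at 2.5 µM and -0.39 at 5 µM. After it TNFRSF10B still had changes of 1.63 and 1.58, and those of XIAP were -0.70 and -1.46. Of all called genes at 5 µM, 44.7% were higher as deposited and 27.6% after that rescaling, and at 2.5 µM 45.6% and 30.4%.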

How the data were processed

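RNA of 3 H660 cultures was analysed, 1 library each. The submitters' processing notes name HISAT2, featureCounts and GRCh38 (hg38), whereas the methods of the study name HISAT and StringTie and also a Top Hat-Cufflinks pipeline; no versions are given in the sources used here. The authors deposited gene FPKM. Identifiers of 58207 of the 58735 genes were found in GENCODE release 44. Fragment totals came from genes with 1 transcript, and the fragments of a gene from the shortest length, at least 0.8 of its canonical transcript, that made all 3 values whole to within 0.002. For FAS this length, 4253 bases, differs from its annotated exons, and its fragments could be a whole multiple. Changes used a pseudocount of 0.1 and the thresholds of the study methods; their clause that keeps genes going to or from 0 was applied only above 1 FPKM. The 9 genes and the lists were chosen with earlier results of these data known. In each list up to 3 genes were named, those with a mean of at least 1 FPKM, the same sign at both doses and the largest change at 5 µM; others were named for overlap or position, or after their values were seen. Some genes of the lists are not reported here. The length trend was a lowess fit (fraction 0.3) on 11200 protein-coding genes. Alternatives were pseudocounts of 1 and 0.01, rescaling, centring, removal of the length trend and other filters. The code was tested on simulated data. The simulated fragments held no copies, so the intervals that take the most frequent number as 1 observation were not tested. Calculations used scipy 1.17.1, pandas 2.3.3 and numpy 2.4.6 in Python 3.11.15, with statsmodels 0.14.6 for lowess and matplotlib 3.10.9 for plots.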

Additional observations from a re-analysis of the deposited data

How the results depend on the processing

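Of 96 recomputed changes of single genes, 85 stayed within their counting interval, 10 left it and 1 that was past 0.25 changed sign, that of BIRC2 at 2.5 µM, to -0.019 without mitochondrial and small RNA genes. FAS at 2.5 µM, within 0.25 of DMSO, also changed sign there, from 0.10 to -0.18. Counts that moved by over 1.5 times are given here, and the cause was not tested. At 5 µM 1 of the 9 genes was lower past 1, which became 0 with a pseudocount of 1, 3 without mitochondrial and small RNA genes and 0 with the length trend removed. The 2 higher at 5 µM became 1 in the latter 2 settings. The 4 lower at 2.5 µM became 2 with the length trend removed and 2 with a mean of at least 5 FPKM, a filter that tests fewer genes and left 1 lower at 5 µM. In the lists, the 7 genes lower past 1 at 2.5 µM became 4 with a pseudocount of 1, with a common FPKM sum and with the filter at 5. The 11 higher past 1 became 7 at 2.5 µM and 6 at 5 µM without mitochondrial and small RNA genes. With the filter at 5, 9 genes were lower at 2.5 µM and 10 at 5 µM, and 5 were lower past 1 at 5 µM. The common FPKM sum moved the median gene by -0.13 at 5 µM. No paired analysis was possible because each condition had 1 library. Low counts limit FAS, FADD and TNFRSF10A at 5 µM.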
